A study of Homo sapiens with 12 samples.

Results

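The genes described here encode the enzymes that make serine and that pass its carbon units to folate in the mitochondrion, together with the cytosolic counterparts of 2 of them. They were PHGDH, PSAT1, PSPH, SHMT1, SHMT2, MTHFD1, MTHFD2, MTHFD1L and ALDH1L2. They were taken by gene symbol, and the set was proposed with earlier results of these data known. They are 9 of the 28278 genes counted in RNA-seq libraries of WA26, a line of human embryonic stem cells (hESCs), and all 9 were among the 15916 genes tested. PSAT1, PSPH and MTHFD2 rose and ALDH1L2 fell in UBQLN1 KO cells given NAC, PSAT1 also rose at 5% O2, and no member passed the test between UBQLN1 KO and WT cells. When a smooth trend in transcript length and GC content was removed from the libraries, the calls for MTHFD2 and ALDH1L2 with NAC held, whereas those for PSAT1 and PSPH with NAC and for PSAT1 at 5% O2 were lost.

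The serine synthesis pathway branches from glycolysis at 3-phosphoglycerate. PHGDH oxidises this intermediate, PSAT1 transfers an amino group to the product, and PSPH removes the phosphate to release serine. Serine hydroxymethyltransferase (SHMT2 in the mitochondrion, SHMT1 in the cytosol) then splits serine into glycine and a carbon unit carried by tetrahydrofolate. In the mitochondrion MTHFD2 oxidises this unit, MTHFD1L releases it as formate, and ALDH1L2 can burn it to carbon dioxide with formation of NADPH. MTHFD1 takes formate up again in the cytosol, where it serves the synthesis of purines and thymidylate. Pluripotent cells divide fast and are known for a high demand on this route. The transcription factor ATF4 is a known activator of PHGDH, PSAT1, SHMT2 and MTHFD2, and MYC of SHMT2 and MTHFD2.

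Total RNA was sequenced from 4 groups of 2 libraries each, all of the WA26 line. The groups were WT cells at normal O2 without treatment, UBQLN1 KO cells at normal O2 without treatment, UBQLN1 KO cells at 5% O2, and UBQLN1 KO cells with NAC (N-acetyl-L-cysteine, a cysteine precursor used as an antioxidant). UBQLN1 encodes ubiquilin, a shuttle factor that carries ubiquitylated proteins to the proteasome. UBQLN1 was deleted with CRISPR/Cas9, and the study describes 2 clones for each genotype. The labels do not tie a library to a clone, nor do they give the dose of NAC or the length of either treatment. The study calls the libraries of its oxygen comparison biological replicates. The labels do not say whether the libraries of a group came from separate cultures, so p-values measure only the spread between these libraries, which may be technical in part. The study describes a DMSO vehicle for the NAC cultures, whereas the label of the comparator names no treatment. WT cells at 5% O2 or with NAC were not analysed here, so whether WT cells respond in the same way is not addressed.

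Library totals ran from 31236968 to 41639350 counts. UBQLN1 was at 209 ± 17.3 CPM (counts scaled to a common library total with TMM factors, mean ± SD, n = 2) in WT cells and at 42.9 ± 0.85 CPM in KO cells at normal O2, a log2 fold change of -2.29, so transcript remained in the libraries labelled KO. The summed level of 10 pluripotency markers, with none at 0, was 6760 to 6770 CPM in WT, 6520 to 6750 CPM in KO, 6410 to 6540 CPM in KO at 5% O2 and 5660 to 6130 CPM in KO with NAC. Summed neuroectoderm markers (6 genes) were 411 to 451 CPM, 657 to 667 CPM, 392 to 473 CPM and 244 to 263 CPM in the same order. NES alone had means of 246, 436, 249 and 127 CPM. The pluripotency markers moved both ways with NAC, with 3 called higher and 4 lower, beside 23.8% and 20.8% of all tested genes. From untreated KO to NAC, mean DNMT3B fell from 2500 to 1280 CPM. Those that rose were DPPA4 (681 to 1100 CPM), ZFP42 (285 to 436 CPM) and TDGF1 (536 to 641 CPM). Summed mesenchymal markers (10 genes) were 514 to 629 CPM in the 6 libraries without NAC, 948 CPM in NAC replicate 1 and 549 CPM in NAC replicate 2. Most of the sum without NAC was THY1, at 332 to 415 CPM in those libraries and at 476 and 399 CPM with NAC. NAC replicate 1 stood apart with 1809 reads of DCN, 1114 of COL3A1 and 148 of LUM, genes of fibroblast-like cells, whereas DCN and LUM were at 0 in all other libraries and COL3A1 had at most 8 reads. Differences with NAC that passed the test are therefore also given without that library, as values for the members and as counts or values for the other gene lists. Mesendoderm markers (6 genes) summed to 1.98 to 7.95 CPM, with SOX17 at 0 in all libraries. The part of these markers in the results below was not tested.

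In hg38 the members lie on 8 chromosomes. The serine synthesis genes are PHGDH (chr1:119648411-119744218, plus strand), PSAT1 (chr9:78297125-78330093, plus strand) and PSPH (chr7:56011051-56051604, minus strand). SHMT1 is at chr17:18327860-18363563 on the minus strand and SHMT2 at chr12:57229573-57234935 on the plus strand. The folate enzymes are MTHFD1 (chr14:64388031-64463457, plus strand), MTHFD2 (chr2:74186172-74217565, plus strand), MTHFD1L (chr6:150865679-151101887, plus strand) and ALDH1L2 (chr12:105019784-105107643, minus strand). All are annotated as protein coding, with 8 to 28 exons in the representative transcript.

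Promoter sequences are shown for the 3 members with a matched promoter that passed a test between KO groups. RefSeq promoters (GRCh38.p14) were matched for 6 of the 9 members. Those of PSPH, SHMT2 and ALDH1L2 were not matched. The 250 bases upstream of the start site are at chr9:78296875-78297124 for PSAT1, chr2:74198365-74198614 for MTHFD2 and chr6:150866236-150866485 for MTHFD1L, all on the plus strand and written 5′ to 3′. Capitals mark a match to 1 of 4 motifs searched on both strands in the window of 300 bases around the start site: the C/EBP-ATF element TGATGNAAN that ATF4 can bind, the E-box CACGTG, the hypoxia response core ACGTG, which overlaps that E-box, and the antioxidant response element TGACNNNGC.
PSAT1: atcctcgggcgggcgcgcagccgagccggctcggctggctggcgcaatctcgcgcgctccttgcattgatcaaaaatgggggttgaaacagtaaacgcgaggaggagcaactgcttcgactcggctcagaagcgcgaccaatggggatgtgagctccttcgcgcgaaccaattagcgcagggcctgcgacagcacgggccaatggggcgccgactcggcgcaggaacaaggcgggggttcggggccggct
MTHFD2: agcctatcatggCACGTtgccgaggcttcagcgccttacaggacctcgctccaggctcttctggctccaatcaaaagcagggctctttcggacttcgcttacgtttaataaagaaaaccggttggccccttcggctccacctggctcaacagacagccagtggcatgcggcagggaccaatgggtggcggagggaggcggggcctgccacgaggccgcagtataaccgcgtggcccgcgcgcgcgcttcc
MTHFD1L: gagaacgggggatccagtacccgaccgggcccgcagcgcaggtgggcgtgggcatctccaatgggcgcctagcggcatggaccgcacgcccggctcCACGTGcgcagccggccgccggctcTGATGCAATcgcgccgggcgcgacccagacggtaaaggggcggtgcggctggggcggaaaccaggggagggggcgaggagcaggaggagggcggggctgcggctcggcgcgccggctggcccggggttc
The MTHFD1L promoter held the C/EBP-ATF element, which was present in 3.61% of all 35116 promoters. It also held the E-box, found in 7.26% of promoters, as did the promoter of MTHFD1. The hypoxia response core was in the promoters of MTHFD1, MTHFD2 and MTHFD1L, and in 21.4% of all promoters. MTHFD2 had the antioxidant response element on the minus strand, 7 bases after the start site and so outside the stretch printed, and 13.3% of promoters had it. The windows of PSAT1, PHGDH and SHMT1 contained none of these letters. A match of letters is a description and not a site of binding.

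Levels were compared between genes as RPKM, the CPM value divided by transcript length in kilobases, with the length of 1 representative transcript each. In WT cells the order was PHGDH at 350 ± 2.33 RPKM, PSAT1 at 211 ± 5.61 RPKM, SHMT2 at 178 ± 5.03 RPKM, MTHFD1 at 74.4 ± 6.08 RPKM, MTHFD2 at 54.2 ± 0.887 RPKM, MTHFD1L at 41.2 ± 3.12 RPKM, PSPH at 33.7 ± 0.307 RPKM, SHMT1 at 20.7 ± 0.212 RPKM and ALDH1L2 at 1.3 ± 0.00586 RPKM (SD, n = 2). The last step of serine synthesis was thus far below the first 2 at the transcript level, and the mitochondrial SHMT2 was above the cytosolic SHMT1. Across the 8 libraries the highest level was 1.10 times the lowest for SHMT1, 1.16 times for PHGDH and 1.18 times for SHMT2, compared with 1.73 times for PSAT1, 2.03 times for MTHFD2 and 2.38 times for ALDH1L2. The genes at the entry to serine synthesis and at the SHMT step were therefore the steadiest across these libraries, and PSAT1, MTHFD2 and ALDH1L2 had the widest ranges. The range of MTHFD2 rested on NAC replicate 1, the library with DCN and LUM reads, at 368 CPM. Every other library had 251 CPM of MTHFD2 or less. For PSPH the highest level was 1.51 times the lowest. No trend in length or GC content was removed from these levels.

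**Figure D1:**
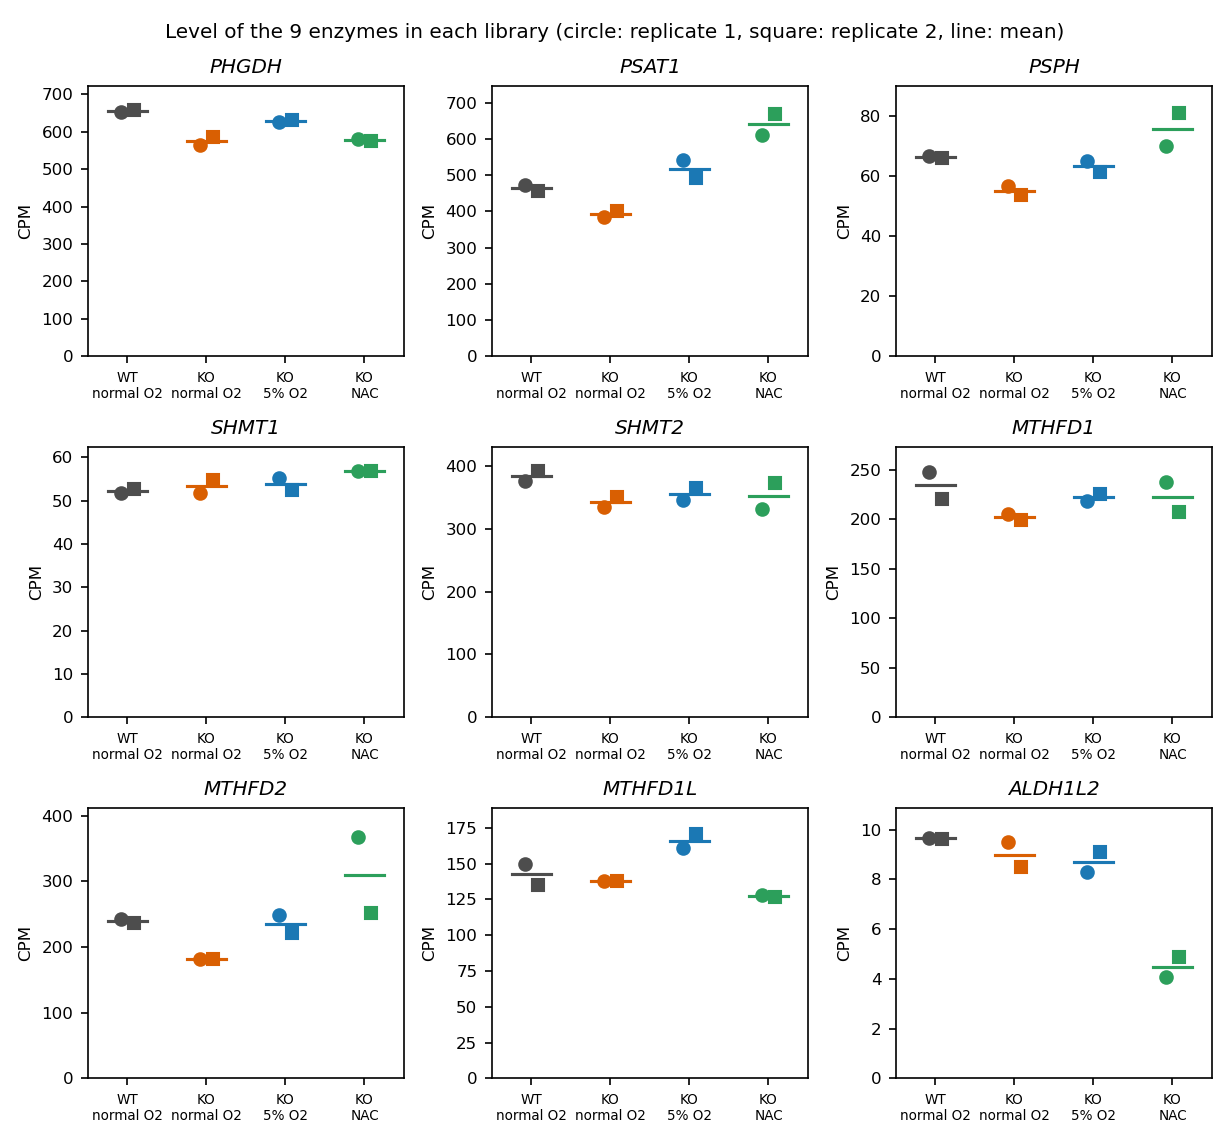
Level of each of the 9 enzymes in CPM (y axis, from 0) in the 8 libraries, by group on the x axis; circles are replicate 1, squares replicate 2 and lines group means. PSAT1 is highest in both NAC libraries, ALDH1L2 is lowest in both, and the 2 NAC libraries of MTHFD2 stand apart at 368 and 251 CPM.

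The first comparison asked how the loss of UBQLN1 at normal O2 affected these transcripts. Compared with WT, 8 of the 9 members had a lower mean in KO cells, with a median log2 fold change of -0.19 beside -0.002 over all tested genes. For 7 members both KO libraries lay below both WT libraries, beside 27.0% of all tested genes, and for 0 members both lay above, beside 27.7%. None passed the quasi-likelihood test of edgeR after Benjamini-Hochberg adjustment over all genes, in which 1.96% of all genes were called at an adjusted p under 0.05 (1.34% higher and 0.622% lower). In bulk RNA, fewer cells of a type and less RNA per cell cannot be told apart. DESeq2 also called 0 members, and 5 members had an unadjusted p under 0.05, all lower in KO.

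In serine synthesis, PHGDH was at 651 and 657 CPM in the 2 WT libraries and at 565 and 585 CPM in the 2 KO libraries. These groups did not overlap, and the log2 fold change was -0.19 ± 0.07 (SE; edgeR adjusted p = 0.21). PSAT1 was at 473 and 456 CPM in WT and at 386 and 402 CPM in KO. Its log2 fold change was -0.24 ± 0.08 (edgeR adjusted p = 0.17), and the groups were again apart. PSPH was at 66.9 and 66.0 CPM in WT and at 56.7 and 53.8 CPM in KO, a log2 fold change of -0.27 ± 0.10 (edgeR adjusted p = 0.192). The 3 enzymes of the pathway were thus lower by like amounts, between 1.14 and 1.20-fold, and none of these differences passed the test.

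Among the SHMT pair, SHMT2 was at 375 and 391 CPM in WT and at 334 and 351 CPM in KO (log2 fold change -0.16, edgeR adjusted p = 0.358). SHMT1 overlapped between the groups, at 51.8 and 52.6 CPM in WT and 51.8 and 54.8 CPM in KO, with a 95% interval for its log2 fold change of -0.17 to 0.22.

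Of the folate enzymes, MTHFD2 had the largest difference. Its level was 242 and 236 CPM in WT and 182 and 181 CPM in KO, a 1.31-fold lower level with a log2 fold change of -0.39 ± 0.14 (edgeR adjusted p = 0.178). The replicates of each genotype were close together, whereas the NAC libraries, at 368 and 251 CPM, were not, and all 4 groups shared 1 estimate of the spread. With only the WT and KO libraries at normal O2 in the fit, MTHFD2 passed the test at the same log2 fold change (edgeR adjusted p = 0.00991, range over alternatives 0.00323 to 0.588). It passed likewise without NAC replicate 1 (edgeR adjusted p = 0.00838) and without NAC replicate 2 (edgeR adjusted p = 0.00856). Of 18 alternatives MTHFD2 passed in 4. The fit with only the libraries compared called 7.24% of all genes, against 1.96% in the main fit. MTHFD1 was at 248 and 221 CPM in WT and at 206 and 199 CPM in KO (log2 fold change -0.21, edgeR adjusted p = 0.267). MTHFD1L was at 150 and 135 CPM in WT and at 138 CPM in both KO libraries, so the groups overlapped. ALDH1L2 was at 9.68 and 9.62 CPM in WT and at 9.49 and 8.50 CPM in KO, with an interval of -0.48 to 0.27 on the log2 scale.

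The second comparison addressed culture of the KO cells at 5% O2, a condition chosen to lower oxidative stress. PSAT1 was the only member that passed the test, and it rose 1.31-fold. Values above the KO libraries at normal O2 in both libraries were seen for 6 members, compared with 30.7% of all tested genes, and for 0 members were both lower, compared with 30.3%. The median log2 fold change of the members was 0.14 beside 0.000 for all genes. Of all tested genes 3.68% were called higher and 4.13% lower, 7.81% in all.

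PSAT1 was at 541 and 492 CPM at 5% O2, against 386 and 402 CPM in KO cells at normal O2. The groups were well apart, and the log2 fold change was 0.39 ± 0.08 (edgeR adjusted p = 0.0221). The call was lost when KO replicate 1 at normal O2 (0.36, edgeR adjusted p = 0.206), KO replicate 2 at normal O2 (0.42, edgeR adjusted p = 0.139) or KO replicate 1 at 5% O2 (0.32, edgeR adjusted p = 0.261) was left out. PHGDH was at 625 and 632 CPM at 5% O2 (log2 fold change 0.13, edgeR adjusted p = 0.301) and PSPH at 65.2 and 61.5 CPM (0.20, edgeR adjusted p = 0.243). Both genes lay between the KO and WT libraries at normal O2.

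MTHFD2 was at 249 and 222 CPM at 5% O2, around its WT level, with a log2 fold change over KO at normal O2 of 0.37 ± 0.14 (edgeR adjusted p = 0.127). MTHFD1L was at 161 and 171 CPM, the highest values of this gene in any library, with a log2 fold change of 0.27 ± 0.09 (edgeR adjusted p = 0.0814). Both genes passed with DESeq2 (adjusted p = 0.0424 for MTHFD2, range over alternatives 0.00381 to 0.547, and 0.0393 for MTHFD1L, range 0.0278 to 0.348). MTHFD1 was at 219 and 226 CPM (log2 fold change 0.14, edgeR adjusted p = 0.395). SHMT1 at 55.1 and 52.5 CPM, SHMT2 at 345 and 364 CPM and ALDH1L2 at 8.29 and 9.10 CPM all overlapped with their KO levels at normal O2.

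The third comparison addressed NAC in KO cells at normal O2. PSAT1 rose 1.63-fold, PSPH 1.37-fold and MTHFD2 1.70-fold, whereas ALDH1L2 fell 2.01-fold. The first enzyme of serine synthesis, PHGDH, was at the level of untreated KO cells, and neither SHMT1 nor SHMT2 passed the test. The members called higher were 3 of 9, beside 23.8% of all tested genes, and 1 of 9 was called lower, beside 20.8% of all genes. Values did not overlap for 5 members that were higher, beside 36.2% of genes, and 2 that were lower, beside 34.0%. With 44.6% of all genes called, this number of calls among the members is close to that in the transcriptome as a whole.

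PSAT1 reached 612 and 670 CPM with NAC, above every other library, and its log2 fold change over KO cells at normal O2 was 0.70 ± 0.08 (edgeR adjusted p = 5.8e-05). PSPH reached 70.1 and 81.2 CPM, also above every other library, with a log2 fold change of 0.45 ± 0.10 (edgeR adjusted p = 0.00287). Without NAC replicate 1 these values were 0.76 for PSAT1 and 0.55 for PSPH, and both calls held. With the length and GC trend removed they were 0.20 (edgeR adjusted p = 0.077) and 0.22 (edgeR adjusted p = 0.123), and both calls were lost. PHGDH was at 580 and 576 CPM, within the range of the untreated KO libraries, and the interval of its log2 fold change was -0.15 to 0.17. With the trend removed it was at 0.13 (edgeR adjusted p = 0.14), near the values of PSAT1 and PSPH in that fit, so that the contrast among the 3 enzymes was seen only before this step. PHGDH is rich in G and C, at 58.1% of transcript bases, compared with 42.5% for PSAT1 and 48.3% for PSPH.

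MTHFD2 was at 368 CPM in NAC replicate 1 and at 251 CPM in NAC replicate 2, both above the KO libraries at normal O2. Its log2 fold change was 0.77 ± 0.14 (edgeR adjusted p = 0.000983). Without NAC replicate 1, the library with DCN and LUM reads, it was 0.46, and without NAC replicate 2 it was 1.02. The call held in every alternative that used an adjusted p under 0.05, with edgeR or DESeq2 adjusted p between 4.28e-13 and 0.0234. By the authors' rule, which needs an absolute log2 fold change over 1, MTHFD2 was not called. The paralog MTHFD2L, a second mitochondrial dehydrogenase, was at 11.7 and 14.9 CPM with NAC and at 8.10 and 7.26 CPM in untreated KO cells. It was highest in the NAC library where MTHFD2 was lower. The processed pseudogene MTHFD2P1 had 0 counts in all 8 libraries.

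ALDH1L2 was at 4.07 and 4.88 CPM with NAC, against 9.49 and 8.50 CPM in untreated KO cells. In counts this was 156 and 146 reads against 350 and 350 reads. Every other library had between 8.29 and 9.68 CPM, so both NAC libraries were far below all 6 others. The log2 fold change was -1.01 ± 0.18 (edgeR adjusted p = 0.000675). It passed in all 17 alternatives, with log2 fold changes from -1.14 to -0.88 and adjusted p from 6.55e-06 to 0.00995, and it was the only member with an absolute log2 fold change above 1. Without NAC replicate 1 its log2 fold change was -0.88. An absolute log2 fold change over 1 at an unadjusted p under 0.05 was reached by 9.02% of all genes with NAC, and by 2.57% in KO vs WT, 2.02% at 5% O2 and 4.42% in NAC vs 5% O2, where 0 members reached it.

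The remaining folate enzymes showed smaller differences with NAC. MTHFD1 was at 238 and 208 CPM (log2 fold change 0.14, edgeR adjusted p = 0.255) and MTHFD1L at 128 and 127 CPM (-0.11, edgeR adjusted p = 0.33). SHMT1 was at 56.9 CPM in both NAC libraries, with an interval of -0.10 to 0.29 on the log2 scale. SHMT2 was at 331 and 372 CPM, with an interval of -0.15 to 0.22, and overlapped with the untreated KO libraries.

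**Figure D2:**
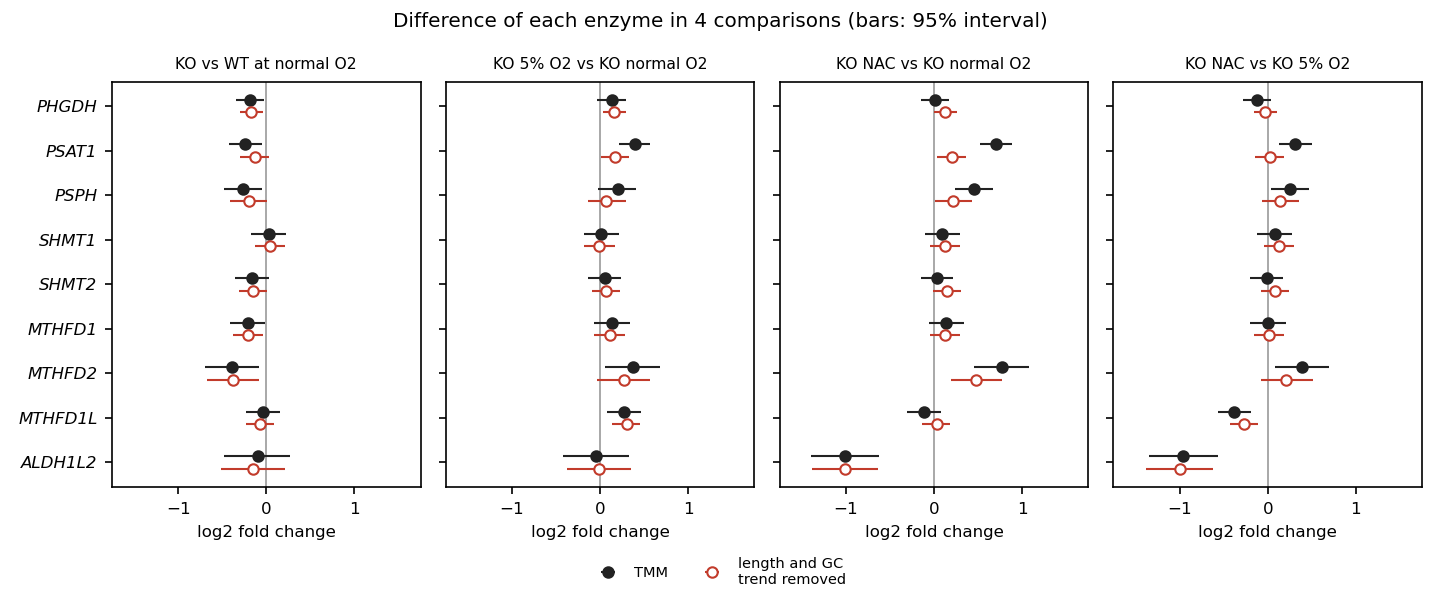
Log2 fold change (x axis) of each enzyme (y axis) in 4 comparisons, with bars for the 95% interval; filled points are from the TMM-scaled counts and open points from the fit with the transcript length and GC trend removed. ALDH1L2 stays near -1 in both fits of KO NAC vs KO normal O2, whereas PSAT1 moves from 0.70 to 0.20.

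Differences with NAC varied with base composition across the transcriptome. Over 15281 tested genes, Spearman's rho between the log2 fold change and the GC content of the transcript was -0.49, and with transcript length it was -0.25, a description across genes, which are not independent replicates. At 5% O2 the values were -0.33 and -0.24, and between KO and WT they were 0.14 and 0.22. When a smooth trend in length and GC was removed from the libraries, PSAT1 and PSPH were no longer called with NAC, as given above (range of adjusted p over alternatives 2.05e-12 to 0.0855 for PSAT1 and 0.000339 to 0.147 for PSPH). The rise of MTHFD2 was then 0.48 (edgeR adjusted p = 0.0234) and the fall of ALDH1L2 was -1.01 (edgeR adjusted p = 0.00228). Transcripts of MTHFD2 and ALDH1L2 had GC contents of 41% and 41.5% and lengths of 4403 and 7428 bases. For PSAT1 at 5% O2 the value was 0.17 (edgeR adjusted p = 0.282, range 0.000556 to 0.301). In this fit 2 members were called with NAC, beside 25.7% of all genes, and 0 at 5% O2, beside 1.46% of all genes. No member was called in KO vs WT, beside 1.32% of all genes.

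The transcripts that rose with NAC were also those with the largest share of sequence repeated in the genome. Of all overlapping stretches of 31 bases, 28.5% in PSAT1, 25.2% in PSPH and 23.2% in MTHFD2 occurred more than once on the primary chromosomes of hg38. The share was 14.3% in MTHFD1, 9.77% in SHMT1, 2.84% in ALDH1L2, 2.22% in MTHFD1L and 0% in PHGDH and SHMT2. At default settings featureCounts leaves out reads that match several places, so counts of the first 3 genes are uncertain. The shares are of 31-base stretches, and how many reads were left out was not examined. The part of GC content in these differences was not tested beyond the fit above, and the part of repeated sequence was not tested.

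**Figure D3:**
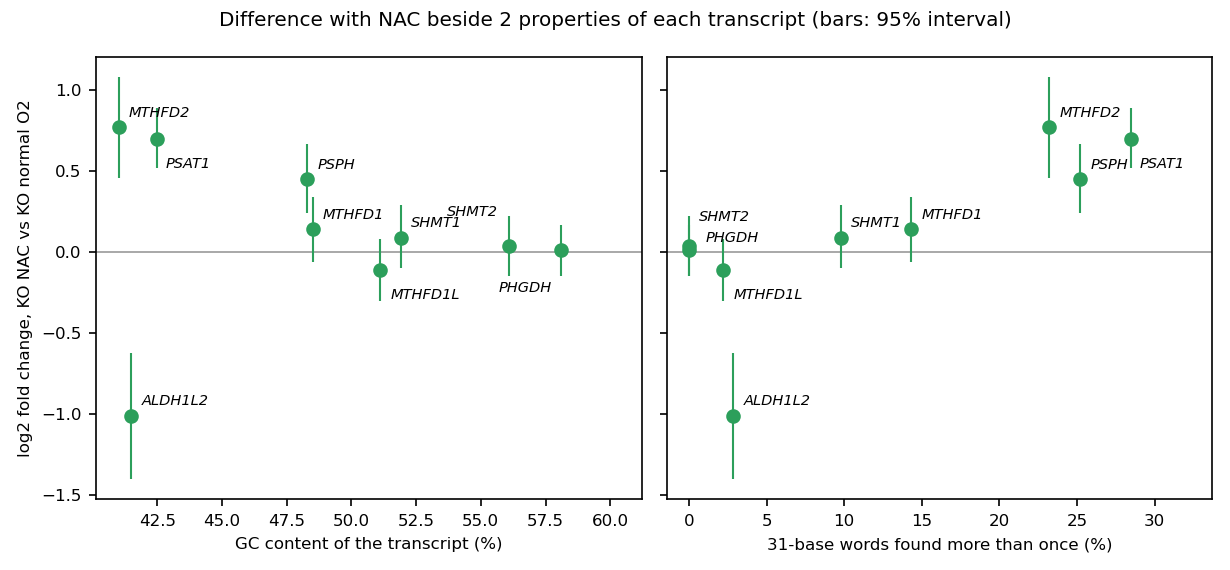
Log2 fold change of each enzyme in KO NAC vs KO normal O2 (y axis, bars are 95% intervals) against the GC content of its transcript (left, %) and the share of its 31-base words found more than once in the genome (right, %). PSAT1, MTHFD2 and ALDH1L2 have GC contents of 41% to 42.5% and differ in direction, and the 3 genes that rose have the 3 largest repeated shares.

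Both treatments were compared with each other in the same KO background. The study's text gives hours of culture for its RNA-seq at 5% O2, whereas its scheme shows passages for both treatments. The labels give no length, so a difference in culture time cannot be told apart from one in treatment. With NAC, PSAT1 was higher than at 5% O2 by 0.31 on the log2 scale (edgeR adjusted p = 0.0162), and ALDH1L2 was lower, at -0.96 ± 0.18 (edgeR adjusted p = 0.00248). MTHFD1L was lower as well, at -0.38 ± 0.09 (edgeR adjusted p = 0.00786), since its 2 NAC libraries were the lowest of all and its 2 libraries at 5% O2 the highest. These were 1 of 9 members called higher and 2 of 9 called lower, beside 15.5% and 13.6% of all genes, of which 29.1% were called in all. Groups did not overlap for 4 members higher, beside 33.4% of genes, and 3 lower, beside 29.2%.

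The calls for MTHFD1L and ALDH1L2 held with the length and GC trend removed, at -0.27 (edgeR adjusted p = 0.0281, range over alternatives 0.000269 to 0.0856) for the first and a 95% interval of -1.38 to -0.62 for the second (edgeR adjusted p = 0.00458, range 4.52e-05 to 0.0381). In that fit 15.9% of all genes were called. That for PSAT1 did not, at 0.03 (edgeR adjusted p = 0.848, range 0.00741 to 0.868). The values without NAC replicate 1 were 0.37 for PSAT1, -0.39 for MTHFD1L and -0.84 for ALDH1L2, and the 3 calls held. With only the libraries compared PSAT1 was not called (edgeR adjusted p = 0.074). Without KO replicate 2 at 5% O2 neither PSAT1 (0.24, edgeR adjusted p = 0.163) nor MTHFD1L (-0.33, edgeR adjusted p = 0.0856) passed, and without NAC replicate 2 PSAT1 was at 0.25 (edgeR adjusted p = 0.0564). MTHFD2 was higher with NAC by 0.39 and PSPH by 0.25, without passing the test (edgeR adjusted p = 0.056 and 0.0737). Without NAC replicate 1 the difference of MTHFD2 was 0.09 (edgeR adjusted p = 0.55, range over alternatives 0.000222 to 0.55), and that of PSPH was 0.35 and passed (edgeR adjusted p = 0.021, range 0.021 to 0.371).

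When the 4 groups were ordered by mean level, few neighbours could be told apart. For PSAT1 the order was KO with NAC, KO at 5% O2, WT and untreated KO, and only the first of these steps passed the test. In MTHFD2 the order was KO with NAC, WT, KO at 5% O2 and untreated KO, and no neighbours were told apart. For ALDH1L2 the order was WT, untreated KO, KO at 5% O2 and KO with NAC, and only the last step passed. MTHFD1L was highest at 5% O2 and lowest with NAC, with no step between neighbours that passed. Neighbouring groups were not told apart for PHGDH, PSPH, SHMT1, SHMT2 or MTHFD1.

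Ratios of counts within a library need no scaling between libraries and compare how partner enzymes moved relative to each other. With 2 libraries against 2, the smallest two-sided p of an exact permutation test is 0.333, so the ratios are a description. The ratio of mitochondrial SHMT2 to cytosolic SHMT1 was 7.33 ± 0.133 in WT, 6.43 ± 0.0253 in KO, 6.6 ± 0.471 at 5% O2 and 6.18 ± 0.519 with NAC (SD, n = 2), so that both WT libraries were above the 2 untreated KO libraries. MTHFD1L to MTHFD1, the formate-releasing over the formate-using enzyme, was 0.606 ± 0.00369 in WT, 0.681 ± 0.0173 in KO, 0.744 ± 0.0158 at 5% O2 and 0.575 ± 0.0503 with NAC. The groups did not overlap in any of the 4 comparisons of this ratio. MTHFD2 to MTHFD2L was 32.8 ± 0.428 in WT and 23.7 ± 1.76 in KO, and with NAC it was 31.5 in replicate 1 and 16.8 in replicate 2.

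For a further pair of ratios, chosen after the values were seen, the NAC libraries stood apart. PSAT1 to PHGDH, consecutive steps of serine synthesis, was 0.728 and 0.694 in WT, 0.684 and 0.687 in KO, 0.865 and 0.778 at 5% O2 and 1.06 and 1.16 with NAC. Of the 8 libraries, only the 2 with NAC had more reads of PSAT1 than of PHGDH. These transcripts differ in GC content, at 42.5% and 58.1%, and with the trend removed their log2 fold changes with NAC were 0.20 and 0.13. MTHFD2 to ALDH1L2, the enzymes that oxidise and that burn the mitochondrial carbon unit, was 19.2 and 21.3 in untreated KO cells and 90.4 and 51.4 with NAC, with every library without NAC at 30.0 or below.

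**Figure D4:**
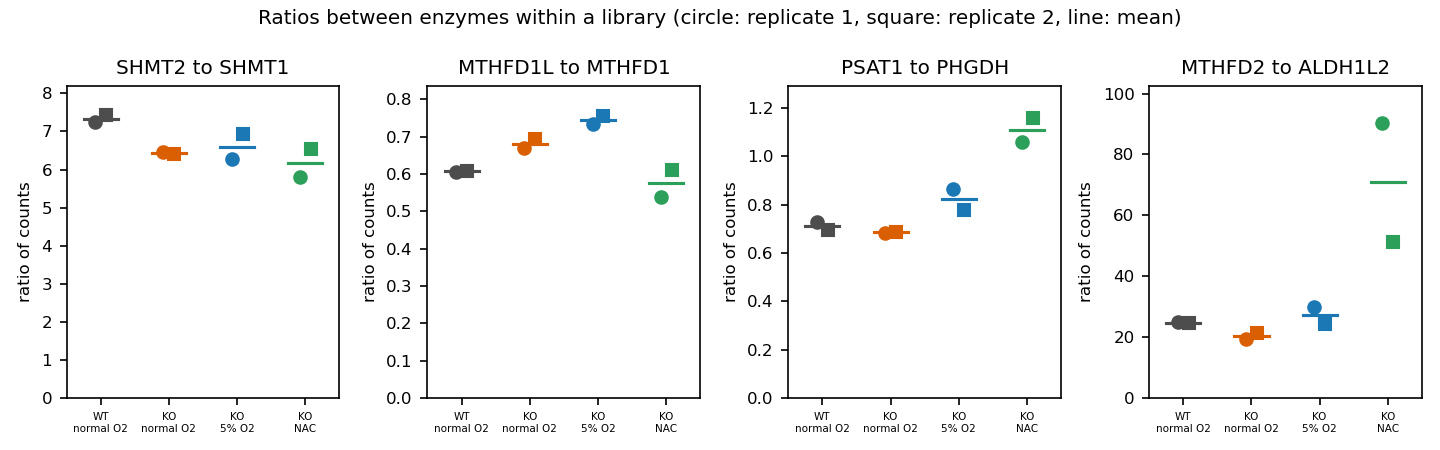
Ratio of counts (y axis, from 0) for 4 pairs of enzymes in each library, by group on the x axis; circles are replicate 1, squares replicate 2 and lines group means. PSAT1 to PHGDH and MTHFD2 to ALDH1L2 are highest in the 2 NAC libraries, and MTHFD1L to MTHFD1 is highest in the 2 libraries at 5% O2.

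The regulators named above were measured in the same libraries as transcripts, and their protein was not examined here. ATF4 transcript did not pass the test in KO vs WT (log2 fold change -0.21, edgeR adjusted p = 0.326), at 5% O2 (0.10, edgeR adjusted p = 0.584) or with NAC (0.07, edgeR adjusted p = 0.614). Of 20 genes of the ATF4 programme outside the 9 members, 18 were tested. None was called in KO vs WT or at 5% O2 by edgeR, beside 1.96% and 7.81% of all tested genes, shares at which a list of this size could hold none. With NAC 4 were higher and 2 lower, beside 23.8% and 20.8% of all tested genes. With the length and GC trend removed the counts were 2 higher and 3 lower, beside 13.8% and 11.9% of all genes. They were 1 and 3 without NAC replicate 1, beside 21.2% and 19.7%, and none of the 4 first called higher was called. Of these, VLDLR was at 43.1 and 12.2 CPM in the 2 NAC libraries and at 11.2 and 11.5 CPM in untreated KO cells, so that its log2 fold change of 1.29 was 0.10 without NAC replicate 1 (edgeR adjusted p = 0.621). CEBPG went from 0.39 to 0.27 (edgeR adjusted p = 0.0551) and XPOT, an exporter of tRNA from the nucleus, from 0.30 to 0.21 (edgeR adjusted p = 0.10). SLC7A5, which imports large neutral amino acids, was lower at -1.27 and the alanyl-tRNA synthetase AARS1 at -0.39, and both were also called without that library. The median of the list with NAC was -0.01. MYC fell with NAC, by 0.31 on the log2 scale (edgeR adjusted p = 0.0155), and was also lower than at 5% O2, at -0.54 (edgeR adjusted p = 0.00178). Both calls held without NAC replicate 1, at -0.42 and -0.64. It had values of -0.18 in KO vs WT (edgeR adjusted p = 0.344) and 0.22 at 5% O2 (edgeR adjusted p = 0.158).

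The surrounding pathway was described with 50 further genes in 7 lists, of which 49 were tested. The lists were folate uptake and retention, other folate enzymes, glycine cleavage and mitochondrial transport, purine synthesis, methionine and transsulfuration, transporters of serine and glycine, and other users of serine. In KO vs WT 0 of the 49 were called, beside 1.96% of all tested genes, with a median log2 fold change of -0.10. At 5% O2, 2 were higher and 1 lower, beside 3.68% and 4.13% of all genes, and ADSL of purine synthesis (0.45) and MAT2B, the regulatory subunit of methionine adenosyltransferase (0.45), were those higher. With NAC 22 were higher and 4 lower, beside 23.8% and 20.8% of all genes, and the median was 0.27 beside 0.023 for all genes. With the length and GC trend removed these counts were 14 and 0, beside 13.8% and 11.9%. They were 18 and 4 without NAC replicate 1, beside 21.2% and 19.7%, and 20 of the 26 calls held. The 6 lost were TYMS, AMT, PAICS, IMPDH2, GMPS and CTH. In NAC vs 5% O2, 12 were higher and 2 lower, beside 15.5% and 13.6% of all genes, and without NAC replicate 1 the counts were 12 and 1.

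With NAC, purine synthesis had 6 of 8 genes higher, beside 23.8% of all tested genes, and PFAS lower (-0.71). Without NAC replicate 1 there were 3 of 8 higher, beside 21.2% of all genes, and PAICS, IMPDH2 and GMPS were lost. ADSL rose by 1.10 on the log2 scale, PPAT, the first enzyme of that pathway, by 0.73 and GART, which uses formyl-folate, by 0.45. With the trend removed ADSL was at 1.06, PPAT at 0.16, GART at 0.33 and PFAS at -0.10. In glycine cleavage and mitochondrial transport 5 of 7 rose, beside the same 23.8%, among them DLD (0.71), GCSH (0.57) and AMT (0.55). SFXN3, a homolog of the serine carrier SFXN1, fell (-0.60). Without NAC replicate 1 there were 4 of 7 higher, and AMT was lost. Trend-removed values were 0.13 for DLD, -0.13 for GCSH and 0.62 for AMT. In that fit 0 genes of this list were called lower, beside 11.9% of all genes, so the fall of SFXN3 was not called.

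Among the folate genes, TYMS, the thymidylate synthase, rose with NAC by 0.38 and MTHFD2L by 0.79. The mitochondrial folate carrier SLC25A32 rose by 0.66 and GGH, which trims folate polyglutamates, by 1.10. With the trend removed MTHFD2L was at -0.04 and GGH at 0.21. In methionine metabolism and transsulfuration 3 of 7 genes rose, beside 23.8% of all tested genes. They were MAT2B, by 1.06, AHCY, which hydrolyses S-adenosylhomocysteine, by 0.79 and CTH, which releases cysteine, by 0.35. The values with the trend removed were 0.31, 0.88 and -0.15. Without NAC replicate 1 there were 4 of 7 higher, beside 21.2% of all genes, and CTH was not among them.

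Of the genes that move serine or glycine, SLC38A2, an importer of small neutral amino acids, rose by 0.41 with NAC and the glycine transporter SLC6A9 fell (-0.55). These were 1 higher and 1 lower of 5 tested transporters, beside 23.8% and 20.8% of all genes. With the length and GC trend removed 1 was called higher and 0 lower, beside 13.8% and 11.9%, so the fall of SLC6A9 was not called. Without NAC replicate 1 the values were 0.45 for SLC38A2 and -0.49 for SLC6A9. SPTLC1 of sphingolipid synthesis rose by 0.88 and PTDSS1 of phosphatidylserine synthesis by 0.32. These were 2 of 7 tested users of serine, beside the same 23.8% of all genes, and 0 were lower. With the trend removed 2 were called higher and 0 lower. Without NAC replicate 1 the values were 0.94 for SPTLC1 and 0.34 for PTDSS1.

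The glycolytic genes around the branch point of serine synthesis moved with both treatments. The 5 listed were GAPDH, PGK1, PGAM1, ENO1 and PKM. All 5 rose at 5% O2, beside 3.68% of all tested genes, with PGK1 at 2.02, PKM at 1.22 and ENO1 at 0.92 on the log2 scale. With NAC 4 of 5 rose, beside 23.8% of all genes, including PGK1 and, at 0.75, PKM. All 5 were lower with NAC than at 5% O2, beside 13.6% of all genes, PGK1 at -0.94 on the log2 scale. The same calls were made without NAC replicate 1, where PKM rose by 0.36. With the length and GC trend removed PKM did not pass in NAC vs 5% O2, at -0.35 (edgeR adjusted p = 0.167). PHGDH was called in neither comparison with untreated KO cells.

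**Figure D5:**
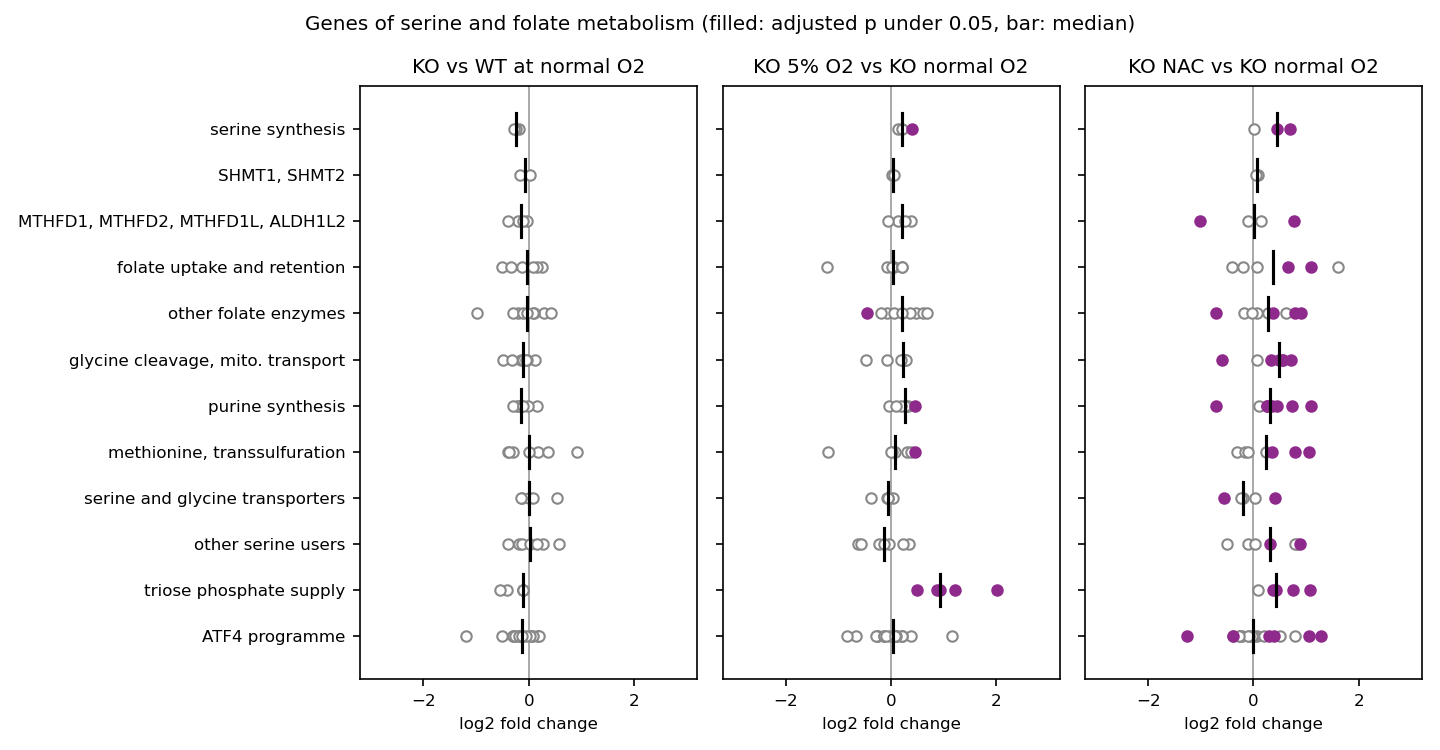
Log2 fold change (x axis) of every tested gene of 12 lists (y axis) in 3 comparisons; each circle is a gene, filled where its adjusted p is under 0.05, and the black bar is the list median. No gene is filled in KO vs WT, all 5 glycolytic genes (the list labelled triose phosphate supply) are filled at 5% O2, and filled genes lie on both sides of 0 with NAC.

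Genes with the closest profile over the 8 libraries were sought among 12270 tested genes, by the root mean square difference of log2 CPM after centring each gene. For PHGDH they were ACTR1A (0.0318), RUVBL2 (0.0363) and WARS1 (0.0400), and PHGDH itself varied by 0.0806 about its mean. For SHMT2 they were GPC4 (0.0336), SLC1A5 (0.0377), a transporter of glutamine and other neutral amino acids, and ELOF1 (0.0392). For MTHFD2 they were SNX16 (0.0648), RALA (0.0771) and PNPLA8 (0.0805), beside a variation of 0.299 of MTHFD2 itself. The points share library, depth and base composition, and the likeness is a description.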

How the data were processed

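The deposited files hold raw read counts by gene. The authors made them by trimming reads with trim-galore, aligning them to hg38 with hisat2 and counting with featureCounts at default settings, without regard to strand. FastQC 0.11.9 is named in the submitters' processing notes, and the annotation used for counting is not given in the sources used here. The table held 8 of the 12 labelled samples.

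Counts were filtered with filterByExpr (minimum count 10), scaled by TMM, and fitted in edgeR 4.0.16 under R 4.3.3 by quasi-likelihood with 1 term per group and no block. All 8 libraries entered 1 fit with 4 residual degrees of freedom, and the biological coefficient of variation was 13.7%. The p-values were adjusted by the Benjamini-Hochberg method across 15916 genes, with calls made under 0.05. Each standard error was derived from the log2 fold change and its F statistic. DESeq2 1.42.0 was an alternative. The authors' call rule was an absolute log2 fold change over 1 with an unadjusted p under 0.05. Smooth dependence of each library on the length and GC content of transcripts (GENCODE transcripts, hg38, 96% of tested genes matched) was removed with mgcv 1.9.3. The code was tested on simulated data.

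The members and gene lists were chosen with earlier results of these data known. Named genes are the members, UBQLN1, ATF4, MYC, up to 3 genes per list, comparison and direction with the largest change among called genes whose mean was 1 log2 CPM or more, and the 3 genes closest in profile to PHGDH, SHMT2 and MTHFD2. Some genes that met this rule are counted in their lists but not reported here by name. Marker genes were named after their counts were seen. Replicate libraries differed beyond counting noise (chi-square per degree of freedom 8.22 to 26.2), so each counted as 1 sample. At this depth counting error is small beside that spread, and 2 libraries per group limit the precision.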

Additional observations from a re-analysis of the deposited data

How the results depend on the processing

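Each comparison was refitted with DESeq2, RLE or upper quartile scaling, 2 other filters, a replicate block, only the libraries compared, the length and GC trend removed, the authors' call rule and each library left out in turn. The trend removed together with the block, and the counts of the other gene lists without NAC replicate 1, were added after seeing the data. In KO vs WT the members called lower went from 0 to 1 (MTHFD2) without a low-count filter and with only the libraries compared, and were 0 to 1 with a library left out. At 5% O2 the members higher went from 1 to 3 with DESeq2, 2 without a filter, 3 with only the libraries compared, 0 with the trend removed, with or without the block, and 0 by the authors' rule, and were 0 to 3 with a library left out. With NAC the members higher went from 3 to 1 with the trend removed, with or without the block, and to 0 by the authors' rule, and ALDH1L2 was the member called lower under every alternative run. In NAC vs 5% O2 the members higher went from 1 to 2 with DESeq2, 2 without a filter, 2 with the replicate block, 0 with only the libraries compared, 0 with the trend removed, with or without the block, and 0 by the authors' rule, and were 0 to 2 with a library left out. The members lower went from 2 to 0 by the authors' rule and were 1 to 2 with a library left out. The authors' rule needs a log2 fold change over 1, which only ALDH1L2 reached, and the cause of the other changes was not tested. The share of all genes called moved as well. At 5% O2 the share called higher was 3.68% in the main fit, 6.79% with DESeq2 and 4.91% without a filter. It was 9.53% with only the libraries compared and 1.05% with the trend removed. In KO vs WT the share called lower was 0.622%, 2.22% without a filter and 2.49% with only the libraries compared.

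Values that changed sign were all small. In KO vs WT with a library left out, SHMT1 was -0.01 to 0.07 and MTHFD1L -0.12 to 0.04. At 5% O2, SHMT1 was -0.01 with the trend removed, 0.00 with the block as well, and -0.03 to 0.05 with a library left out, over which ALDH1L2 was -0.13 to 0.03. With NAC, PHGDH was -0.02 with DESeq2, -0.02 with RLE, -0.01 with upper quartile scaling, -0.01 with at least 10 counts in every library, -0.02 with only the libraries compared and -0.03 to 0.03 with a library left out. SHMT2 was -0.05 to 0.12 with a library left out, and MTHFD1L 0.03 with the trend removed, with or without the block. In NAC vs 5% O2, SHMT2 was 0.08 with the trend removed, with or without the block, and -0.10 to 0.07 with a library left out. MTHFD1 was -0.03 with DESeq2, RLE, upper quartile scaling or only the libraries compared, 0.00 without a filter, -0.01 with at least 10 counts in every library, 0.00 with the block and -0.10 to 0.09 with a library left out.

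Over all genes, the calls at 5% O2 went from 586 higher and 657 lower to 1081 and 1063 with DESeq2 and to 167 and 65 with the trend removed. In KO vs WT they went from 213 and 99 to 545 and 315 with DESeq2, and to 112 and 98 with the trend removed. With NAC they went from 3785 and 3315 to 2197 and 1887 with the trend removed, and in NAC vs 5% O2 from 2469 and 2166 to 1320 and 1215. The share called higher with NAC thus went from 23.8% to 13.8%. In NAC vs 5% O2 that share was 15.5%, against 15.1% with DESeq2, 13.4% without a filter and 15.9% with the replicate block. With only the libraries compared it was 9.54%, and with the trend removed 8.29%. Same-numbered libraries did not deviate together, with correlations of -0.02 to 0.08, so the numbers were not taken as pairs. The replicate block moved the number of calls by the values given above and changed no other count of members.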
